A study of Homo sapiens with 10 samples.

Results

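The carcinoembryonic antigen (CEA) family is described here through 8 genes, CEACAM1, CEACAM3, CEACAM5, CEACAM6, CEACAM7, CEACAM8, CEACAM19 and CEACAM21. They were taken by symbol from a table of 58870 genes, and all 8 symbols were found once each. The cells were LS180, an established human colorectal cancer line, carried in culture without drug treatment. The study used CRISPR interference, in which a guide RNA brings an inactive Cas9 to a gene and lowers its transcription, to make stable lines depleted of RNASE1, a secreted ribonuclease. Control lines NTC1 and NTC2 held non-targeting guides, and lines sg1, sg2 and sg3 held guides against RNASE1. Each of the 5 lines gave a library lettered A and a library lettered B, so there were 10 libraries in all. The labels do not say whether a line is 1 clone or a pool, nor what the letters stand for. The spread behind each p-value is therefore that of these samples and could be wholly technical.

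CEA family proteins are cell surface glycoproteins of the immunoglobulin superfamily, built from an outer variable-type domain and a varying number of constant-type domains. Some are held in the membrane by a glycosylphosphatidylinositol (GPI) lipid anchor and some by a transmembrane segment with a signalling tail. They bind one another between neighbouring cells, and CEA itself, the product of CEACAM5, is shed into blood and serves as a marker in the follow-up of colorectal cancer.

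Library totals ran from 39026605 to 45050991 expected counts. RNASE1 was lower in all guide libraries (1.02 to 3.75 CPM, the count scaled by depth) than in all NTC libraries (16.4 to 23.7 CPM), with a log2 fold change of -3.26 (SE 0.23, edgeR quasi-likelihood adjusted p = 8.37e-05). As to the labelled cell type, all 11 colorectal epithelial markers had a mean of at least 1 CPM. Markers of neutrophils, which carry several CEA family proteins, summed to 0.0712 to 0.266 CPM, and 4 of those 9 markers, ELANE among them, had no count in any library. Of 6 markers of other leukocytes, 1 had no count in any library, the pan-leukocyte gene PTPRC. Those 6 summed to 0.721 to 1.66 CPM, most of it CD14 (mean 0.929 CPM). Of 5 fibroblast markers, 2 had a mean of at least 1 CPM, and the 5 summed to 2.57 to 4.04 CPM.

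CEACAM5 and CEACAM6 dominated the family in every library. CEACAM5 (chr19:41708585-41729798 in GENCODE 29 on GRCh38, plus strand, protein coding) encodes the GPI-anchored CEA. Its level after TMM scaling was 153.5 CPM in NTC1 A and 143 in NTC1 B, 139 in NTC2 A and 167 in NTC2 B, 137 in sg1 A and 165 in sg1 B, 155 in sg2 A and 119 in sg2 B, and 150.3 in sg3 A and 144 in sg3 B. The highest values came from NTC2 B and sg1 B and the lowest from sg2 B, so neither the arms nor the letters separated. CEACAM6 (chr19:41750977-41772208, plus strand, protein coding) encodes a shorter GPI-anchored relative that also occurs on granulocytes. It measured 130.0 CPM in NTC1 A and 84.5 in NTC1 B, 108 in NTC2 A and 92.1 in NTC2 B, 112 in sg1 A and 101 in sg1 B, 116 in sg2 A and 66.1 in sg2 B, and 119.6 in sg3 A and 83.0 in sg3 B. All 5 A libraries lay above all 5 B libraries, while the 2 arms overlapped.

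The coding sequences of these neighbours are alike, which bears on how reads can be assigned to one or the other. Over 1030 aligned coding bases, 90.9% were identical between CEACAM5 and CEACAM6, and CEACAM6 and CEACAM1 were 89.2% identical over 1032. The longest exact run common to the CEACAM5 and CEACAM6 transcripts was 65 bases. It is printed here with 40 bases on either side, from the GENCODE 29 transcripts, 5′ to 3′, positions 826 to 970 of CEACAM5 and 930 to 1074 of CEACAM6, all of it coding; capitals mark the 15 positions at which the genes differ.
CEACAM5: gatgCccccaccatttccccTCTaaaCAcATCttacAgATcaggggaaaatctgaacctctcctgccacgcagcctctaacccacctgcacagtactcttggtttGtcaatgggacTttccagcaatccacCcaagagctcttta
CEACAM6: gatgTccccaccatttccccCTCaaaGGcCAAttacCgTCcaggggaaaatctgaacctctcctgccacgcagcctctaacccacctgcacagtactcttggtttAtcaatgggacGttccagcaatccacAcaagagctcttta
A 50-base window could therefore be shared: 40 of the windows of each transcript occurred in the other, 1.42% of those of CEACAM5 and 1.51% of those of CEACAM6. No 100-base window was common to both. A read-through gene, AC243967.1 (chr19:41708612-41761282), overlaps both loci and held 17.1% of the 100-base windows of CEACAM5 and 1.96% of those of CEACAM6. It was assigned 180.4 to 337 counts per library, 2.92% to 5.21% of the CEACAM5 count; how many reads were assigned to the wrong one of these genes was not measured.

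CEACAM1 came after these by level. It encodes a transmembrane protein with an inhibitory signalling tail, present on epithelia and leukocytes (chr19:42507304-42561234, minus strand). It measured 5.97 CPM in NTC1 A and 6.01 in NTC1 B, 6.82 in NTC2 A and 5.41 in NTC2 B, 6.63 in sg1 A and 6.83 in sg1 B, 7.16 in sg2 A and 5.86 in sg2 B, and 6.80 in sg3 A and 5.96 in sg3 B. Across single libraries, both arms and both letters overlapped.

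The remaining 5 members were at trace levels. A count of 3 corresponds to 0.0666 to 0.0769 CPM in these libraries, so counting error is large at these levels. CEACAM7, a GPI-anchored gene of the mature colonic surface epithelium, had 3 to 13 counts per library (0.0656 to 0.309 CPM). CEACAM8, a GPI-anchored granulocyte gene, had 1 to 10 counts (0.0237 to 0.238 CPM). CEACAM3, a granulocyte receptor that takes up CEACAM-binding bacteria, had no count in either NTC1 library and 1 to 9 counts elsewhere (0 to 0.210 CPM). CEACAM21 had 2 to 12 counts (0.0512 to 0.285 CPM). CEACAM19, which lies apart from the main cluster at chr19:44662278-44684359, had 3 to 23.1 counts (0.0701 to 0.503 CPM), with its highest value in NTC1 B. The other CEACAM, pregnancy-specific glycoprotein and CEACAM pseudogene entries of the table were nearly silent: 22 of 27 had no count in any library, and the other 5 held 12 counts in all.

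Levels of different genes are comparable only per length, so CPM was divided by the length of the longest transcript and scaled to an equal sum in every library. On that scale CEACAM5 was at 134.5 ± 12.9 (SD, n = 10 libraries), CEACAM6 at 98.1 ± 17.4 and CEACAM1 at 4.73 ± 0.371. Ranges were 111 to 154 for CEACAM5 and 65.8 to 123.5 for CEACAM6, which overlap, although CEACAM5 was the higher of the pair in 10 of 10 libraries. CEACAM1, at 4.07 to 5.28, stood clear of both and of the 5 trace members. Those had medians of 0.228 (CEACAM21), 0.216 (CEACAM7), 0.159 (CEACAM8), 0.146 (CEACAM19) and 0.0799 (CEACAM3), and their ranges all overlapped, so they have no order among themselves. CEACAM5 and CEACAM6 together made up 97.1% to 98.0% of the summed per-length abundance of the 8 genes, with 51.5% to 61.8% from CEACAM5 and 36.1% to 46.4% from CEACAM6.

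**Figure D1:**
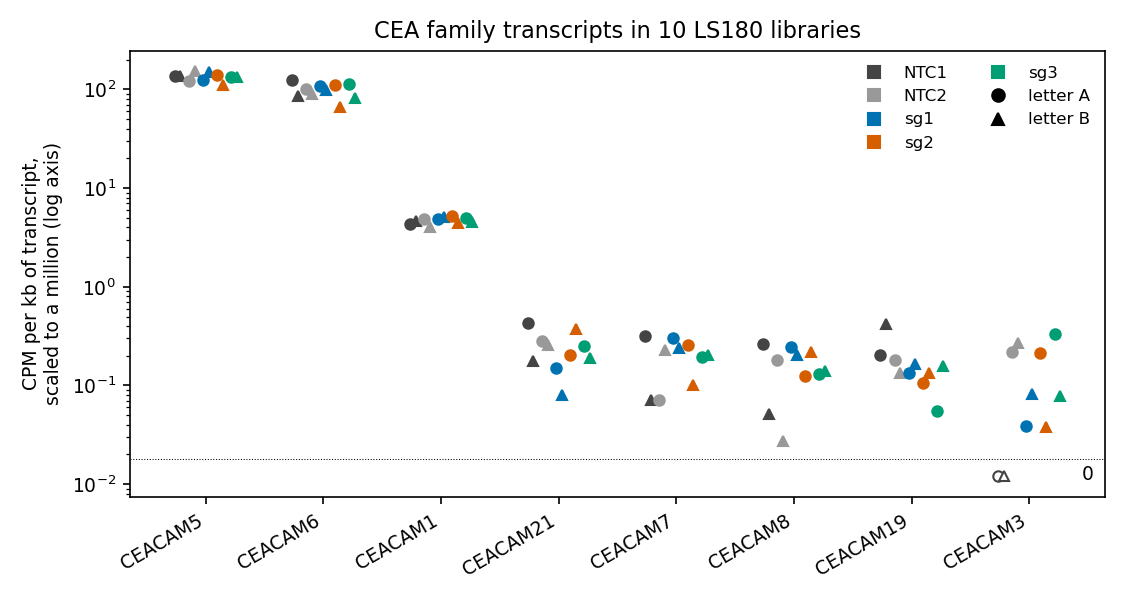
Abundance of each CEA family gene in each library, as CPM per kb of transcript scaled to an equal sum per library, on a log axis; colours are lines, circles letter A and triangles letter B, and open symbols under the dotted line are values of 0. CEACAM5 (111 to 154) and CEACAM6 (65.8 to 123.5) sit far above CEACAM1 (4.07 to 5.28), and the other 5 genes are below 0.5 in every library.

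LS180 is known as a high producer of CEA, and the rank of CEACAM5 places that in the transcriptome. Per length, CEACAM5 had a median rank of 1303.5 over the 10 libraries (1143 to 1648), within the top 5.29% to 7.64% of the 21385 to 21932 genes with any count. CEACAM6 had a median rank of 1815 (1445 to 2793), within the top 6.70% to 12.9%. CEACAM1 ranked near the middle of the detected genes, at a median of 10650 (10376 to 10950). With the union of exons as the length, the median ranks were 1064.5 for CEACAM5, 1442.5 for CEACAM6 and 11049 for CEACAM1. The rank of CEACAM6 went with the letter: it was 1445 to 1766 in the A libraries and 1864 to 2793 in the B libraries, without overlap. The rank of CEACAM5 did not, with 1266 to 1448 in A and 1143 to 1648 in B.

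**Figure D2:**
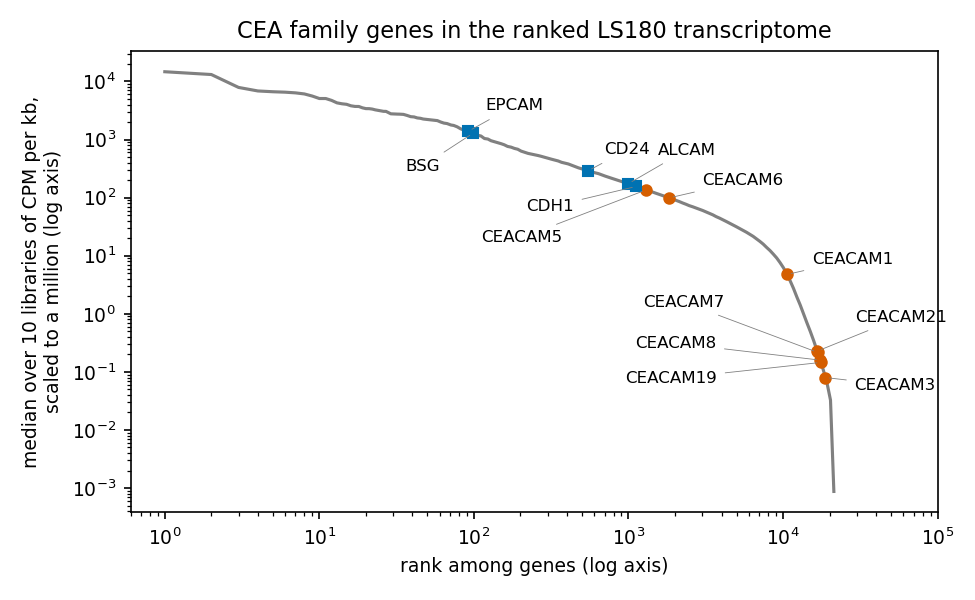
Median per-length abundance over the 10 libraries against rank, both on log axes, for all genes with a median above 0 (grey line), with CEA family genes as orange circles and 5 other surface genes as blue squares. In this ranking of medians CEACAM5 (rank 1301) and CEACAM6 (rank 1835) lie just below CDH1 (rank 1124), while CEACAM1 (rank 10618) is on the steep part of the curve.

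Among other surface genes, CEACAM5 was abundant but not leading. Of 15 tumour surface glycoproteins of colorectal epithelium, 8 had a higher median per-length abundance than CEACAM5, led by EPCAM, an epithelial adhesion molecule, at 1389, CD9 at 459 and GPA33 at 278, against 135.9 for CEACAM5. ERBB2, at 103, lay between CEACAM5 and CEACAM6, whose median was 99.1. Of 23 other GPI-anchored genes, only CD24 (288) and LY6E (266) were above CEACAM5 and CEACAM6. Of 21 adhesion genes of the immunoglobulin superfamily, BSG (1292) and ALCAM (174) were above CEACAM5, and NECTIN2 (109) was also above CEACAM6. CEACAM1 was below 13 of the 23 GPI-anchored genes and 12 of the 21 adhesion genes.

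The first comparison asks whether repression of RNASE1 went with a change in CEA family transcripts. None of the 8 members passed the test between guide and NTC lines. With the letters summed per line, 3 guide lines were tested against 2 NTC lines by the edgeR quasi-likelihood test, and 0 of 8 members passed an adjusted p of 0.05, against 0.0231% of all genes tested (4 of 17335; 2 with the letter as a replicate block). The members had a median log2 fold change of 0.03, and all tested genes had a median of 0.00. At an unadjusted p under 0.05 there was 1 member, CEACAM19, against 7.98% of all genes, and DESeq2 called none of the 8. In bulk RNA, fewer cells that express a gene and less RNA per cell cannot be told apart.

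Mean CEACAM5 was 150.5 ± 3.51 CPM over the NTC lines (SD, n = 2) against 145 ± 7.14 CPM over the guide lines (SD, n = 3). Its log2 fold change was -0.05 (SE 0.04, 95% interval -0.13 to 0.03, edgeR adjusted p = 0.772), an interval of 0.911 to 1.02 times the NTC level. Mean CEACAM6 was 103 ± 4.37 CPM over the NTC lines, and the guide lines were at 0.970 of the NTC level (95% interval 0.898 to 1.05). Its log2 fold change was -0.04 (SE 0.05, 95% interval -0.16 to 0.07, edgeR adjusted p = 0.871). Mean CEACAM1 was 6.05 ± 0.0921 CPM against 6.55 ± 0.177 CPM, with a log2 fold change of 0.11 (SE 0.07, 95% interval -0.04 to 0.27, edgeR adjusted p = 0.738). For these 3 genes the arms overlapped within letter A and within letter B. As means of both letters, the lines of the 2 arms overlapped for CEACAM5 and CEACAM6. For CEACAM1 they did not, with 5.99 and 6.12 CPM in NTC1 and NTC2 and 6.38 to 6.73 CPM in the guide lines. How many of all genes separated in that way was not counted, so the separation is not read as a result. The CEACAM1 log2 fold change was positive in all 24 alternative fits (0.04 to 0.19), none of them called. Those fits reuse the same lines and are not independent of one another. The intervals reach 1.21 times the NTC level for CEACAM1 and less than that for CEACAM5 and CEACAM6. Leaving out 1 library moved CEACAM6 beyond its interval, to a log2 fold change of -0.19 without NTC1 B, -0.16 without sg2 A and 0.11 without NTC1 A. Such a fit leaves 1 line with a single letter, so the letter difference of CEACAM6 given below enters it. With all libraries and the letter as a replicate block, the log2 fold change of CEACAM6 was -0.06. The guide against NTC fold changes of 9523 genes with a mean of 10 CPM or more went with GC content (Spearman rho 0.50, across genes) and hardly with transcript length (rho 0.006). With a GC correction the log2 fold change was -0.06 for CEACAM5, -0.04 for CEACAM6 and 0.12 for CEACAM1, none of them called.

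The trace members had wide intervals. CEACAM19 averaged 0.294 ± 0.131 CPM against 0.155 ± 0.0290 CPM, NTC lines first, a log2 fold change of -0.92 (SE 0.42, 95% interval -1.83 to -0.02, edgeR unadjusted p = 0.0466, adjusted p = 0.617). That value leaned on 1 line: it was -0.54 without NTC1 B and -0.38 without line NTC1. CEACAM21 had a log2 fold change of -0.46 (SE 0.47), CEACAM7 of 0.35 (SE 0.42), CEACAM8 of 0.42 (SE 0.48) and CEACAM3 of 0.13 (SE 0.90). The fitted fold change of CEACAM3 is no bound, because 1 of the 2 NTC lines had no count.

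The guide lines were also compared one by one with the mean of both NTC lines. CEACAM3 and CEACAM8 did not pass the low-count filter of these fits. Of the 6 members tested, 0 were called for any guide, against 0.00609% of 16411 genes for each of sg1, sg2 and sg3. At an unadjusted p under 0.05 there was no member, against 377, 298 and 354 of the 16411 genes in that order. With the letter as a replicate block, 4, 2 and 6 genes passed for sg1, sg2 and sg3, none of them a member. CEACAM5 had a log2 fold change of 0.00 in sg1, -0.14 in sg2 and -0.04 in sg3 (SE 0.12 each). CEACAM6 had 0.04 in sg1, -0.18 in sg2 and -0.03 in sg3 (SE 0.24 each). CEACAM1 had 0.15 in sg1, 0.11 in sg2 and 0.08 in sg3 (SE 0.13 each). These 3 comparisons share the NTC libraries. Their fits left the letter out, so the letter difference of CEACAM6 given below adds to its SE. With the letter as a replicate block, CEACAM6 had 0.06 in sg1, -0.21 in sg2 and -0.04 in sg3. CEACAM5 and CEACAM6 were each lowest in sg2, through the library sg2 B.

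Differences among the guide lines and between the control lines were not detected either. No member was called in the F test across sg1, sg2 and sg3, where 0.00% of genes passed (226 at an unadjusted p under 0.05, 8 by DESeq2, 8 with the letter block). NTC2 against NTC1 gave 0.05 (SE 0.14) for CEACAM5, -0.10 (SE 0.28) for CEACAM6 and 0.03 (SE 0.15) for CEACAM1 on the log2 scale. That comparison called 0.00% of genes (282 at an unadjusted p under 0.05, 2 by DESeq2, 2 with the letter block). Both main fits left the letter out, so letter differences add to their spread. With the letter block, NTC2 against NTC1 gave -0.07 for CEACAM6. Over all guide lines, the log2 differences of CEACAM5 (-0.05) and CEACAM6 (-0.04) from the controls were near or below that control difference in size. In sg2 alone they were larger, at -0.14 and -0.18. CEACAM1, at 0.11 over all guide lines, was also further from 0.00 than between the controls. With only 2 control lines, the size of a control difference is known no better than these SEs.

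**Figure D3:**
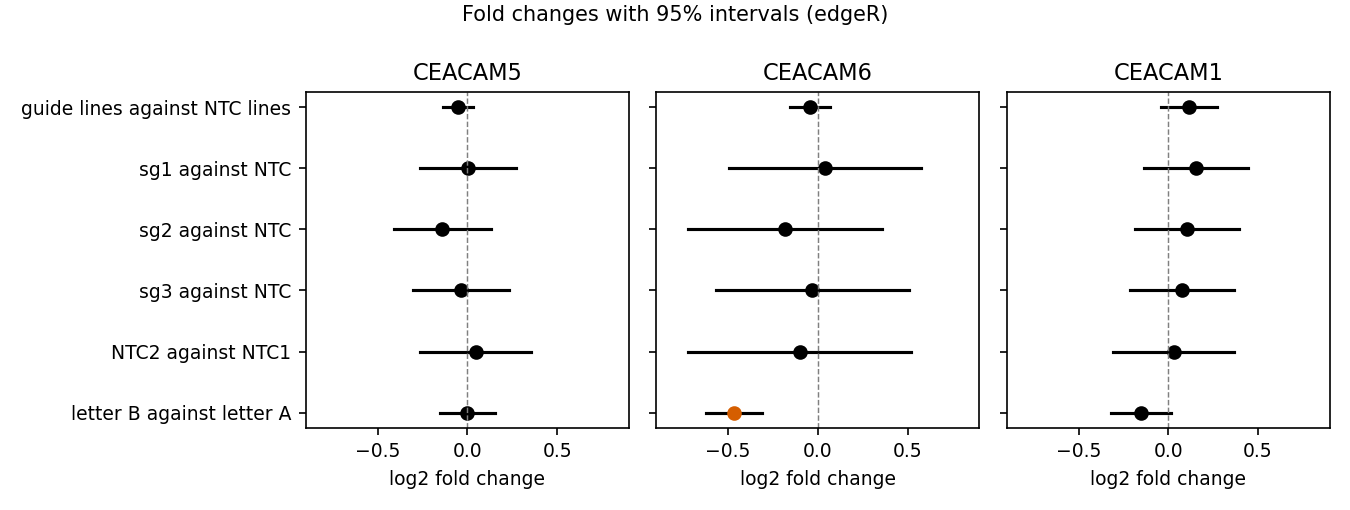
Log2 fold changes (points) with 95% intervals (lines) from edgeR for the 3 most abundant members in 6 comparisons; orange marks an adjusted p under 0.05. Only CEACAM6 in letter B against letter A, at -0.47, is orange, and in the other comparisons shown every interval includes 0.

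The second comparison is between letters, within lines. CEACAM6 was lower in the B library of all 5 lines, and CEACAM5 was not. CEACAM6 averaged 117 ± 8.40 CPM (SD, n = 5 libraries) in A and 85.3 ± 12.9 CPM in B, and fell by 27.6%: its log2 fold change was -0.47 (SE 0.07, 95% interval -0.62 to -0.31, edgeR adjusted p = 0.000369). Of the 6 members tested, it was the 1 that passed, in a comparison that called 29.6% of all 16411 genes, 15.0% of them as lower in B. All B libraries lay below all A libraries for 9.60% of genes. The median over the 6 members was -0.26, and over all tested genes it was 0.00.

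The letter difference of CEACAM6 was present in both arms. The log2 fold change was -0.43 in the NTC lines alone and -0.49 in the guide lines alone, and the test of the difference between those gave -0.07 (SE 0.15, edgeR adjusted p = 0.971). It stayed between -0.55 and -0.38 in 18 alternative fits by edgeR or DESeq2, with an adjusted p of at most 0.00453. CEACAM5 averaged 147 ± 8.37 CPM in A and 148 ± 19.7 CPM in B, with a log2 fold change of 0.00 (SE 0.07, 95% interval -0.15 to 0.15, edgeR adjusted p = 1.00). CEACAM1 averaged 6.68 ± 0.441 CPM in A and 6.01 ± 0.514 CPM in B, with a log2 fold change of -0.15 (SE 0.08, 95% interval -0.32 to 0.01, edgeR adjusted p = 0.162). CEACAM7 (-0.47, SE 0.50), CEACAM21 (-0.36, SE 0.47) and CEACAM19 (0.46, SE 0.41) did not pass.

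Within lines, CEACAM5 and CEACAM6 moved in parallel. From A to B, log2 CPM of CEACAM6 moved by -0.62 in NTC1, -0.23 in NTC2, -0.15 in sg1, -0.81 in sg2 and -0.53 in sg3. Over the same lines, log2 CPM of CEACAM5 moved by -0.10, 0.27, 0.27, -0.38 and -0.06. The lines with the largest fall in CEACAM6 were those in which CEACAM5 was lower in B, and the 2 lines with the smallest fall were those in which CEACAM5 was higher.

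The ratio of the CEACAM6 count to the CEACAM5 count, computed after these values had been seen, was therefore nearly the same in all libraries of a letter. In A it was 0.847 in NTC1, 0.776 in NTC2, 0.818 in sg1, 0.750 in sg2 and 0.796 in sg3. In B it was 0.590, 0.551, 0.610, 0.556 and 0.577, so that the highest B value was below the lowest A value. The log2 ratio moved by -0.52, -0.50, -0.42, -0.43 and -0.47, a mean of -0.47 ± 0.04 (SD, n = 5 lines), where the log2 CPM of each gene alone varied with an SD of 0.28 between lines. Counting error of a single log2 ratio was 0.0265 to 0.0339. Adding the read-through gene AC243967.1 to CEACAM5 left the mean at -0.47 (SD 0.04), and adding it to CEACAM6 gave -0.44 (SD 0.05).

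The ratio overlapped between guide and NTC lines. Within letter A it averaged 0.812 in the NTC lines and 0.788 in the guide lines, and within letter B it averaged 0.570 and 0.581. With 2 against 3 libraries in a letter, no permutation test of this difference could have passed 0.05.

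**Figure D4:**
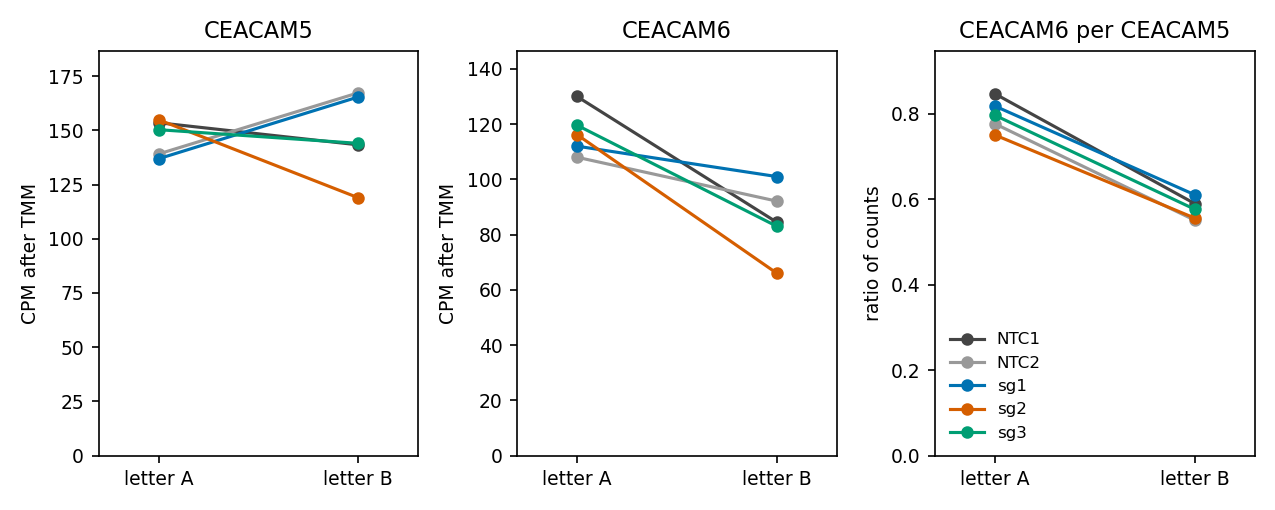
CPM after TMM scaling of CEACAM5 (left) and CEACAM6 (middle), and the ratio of their counts (right), in letter A and letter B, with 1 line per cell line and all axes from 0. CEACAM6 falls in every line by varying amounts and CEACAM5 goes either way, while the ratio drops from 0.750 to 0.847 in A to 0.551 to 0.610 in B in all 5 lines.

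Other quantities moved with the letter too, and their part in the CEACAM6 result was not tested. Across 9523 genes at 10 CPM or more, the letter fold change went with transcript length (Spearman rho 0.43, across genes) and hardly with GC content (rho 0.03). CEACAM6 and CEACAM5 are of like length, 2700 and 2874 bases. Among 1356 genes of 2430 to 3161 bases, the median log2 fold change was -0.05, and 7 were at or below the value of CEACAM6. Over all 9527 genes of that level, 26 were lower than CEACAM6. The summed level of the 11 epithelial markers was 8120 to 8316 CPM in A and 6600 to 7597 CPM in B, which do not overlap. That sum weighs abundant markers most, above all KRT8 (mean 2909 CPM) and KRT18 (1550 CPM). Single markers went either way: GPA33 (-0.21) and CDX1 (-0.09) were called lower in B and CDX2 (0.17) higher. EPCAM (-0.08) was not called.

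**Figure D5:**
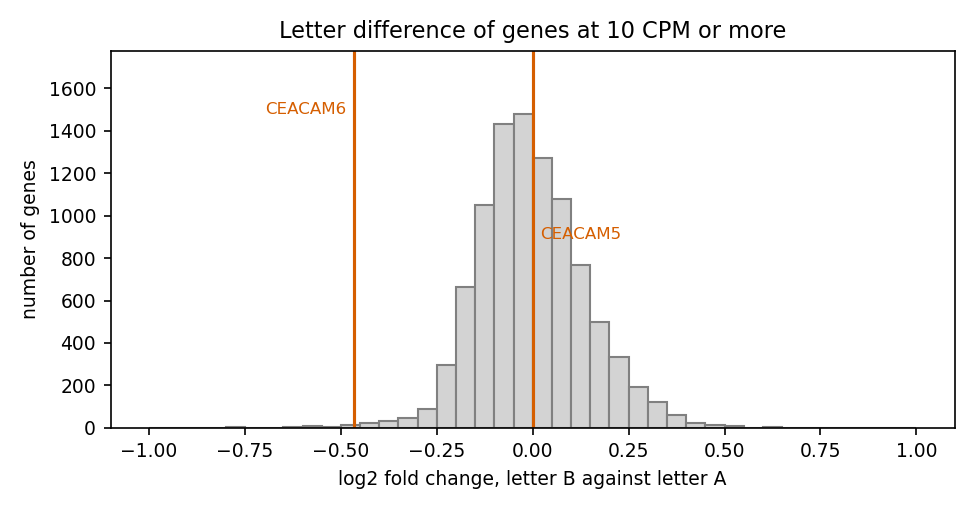
Number of genes (bars, 0.05 wide) by log2 fold change of letter B against letter A, for genes with a mean of 10 CPM or more. CEACAM5 (vertical line at 0.00) lies at the centre and CEACAM6 (vertical line at -0.47) in the lower tail, with 26 of 9527 genes below it.

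Likeness between genes was described by Pearson's r of their log2 CPM over the 10 libraries, with 9526 other genes at 10 CPM or more (9527 for CEACAM1) ranked by likeness to each abundant member; the libraries share lines and letters, so these are descriptions. Before the letter was taken out, CEACAM5 and CEACAM6 had an r of 0.52, and CEACAM6 ranked 422 among the genes most like CEACAM5. Once letter means were removed, r was 0.93 and CEACAM6 ranked 3, after CEMIP2 (0.98) and NET1 (0.96). From the side of CEACAM6, CEACAM5 ranked 2954 with the letter kept and 7 with it removed. The genes nearest to CEACAM6 were DUSP4, a phosphatase of MAP kinases (0.99), S100A4 (0.99) and HRAS (0.98) with the letter kept, and DUSP4 (0.97), BMP4 (0.96) and CEMIP2 (0.96) with it removed. For CEACAM5 with the letter kept, they were RPP38 (0.92), CEMIP2 (0.89) and AKR1C2 (0.88). With the letter kept, CEACAM1 had an r of 0.55 with CEACAM6 and of 0.07 with CEACAM5. It went with neither once the letter was removed (r of 0.09 with each). Its nearest genes were then THRA (0.93), C1orf210 (0.92) and IRF3 (0.91).

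Since CEACAM5 and CEACAM6 varied together apart from the letter, the 250 bases before their RefSeq starts (GRCh38.p14) were set side by side. They were 78.5% identical over 242 aligned bases, against 74.4% for CEACAM6 with CEACAM1. The longest exact run common to the windows of CEACAM5 and CEACAM6 was 21 bases. The window of CEACAM7, a trace member, was not aligned, yet it shares a longer exact run with that of CEACAM5. Likeness over the whole window was therefore not shown to be particular to the abundant pair. Each held 1 copy of the E box CACGTG, read on both strands, which 6.35% of 35116 promoters of that length also hold. It began at -46 in CEACAM5 and at -45 in CEACAM6, counted back from the base before the start at -1. The other members with an entry, CEACAM1, CEACAM3, CEACAM7, CEACAM8 and CEACAM21, had no CACGTG in that window. Only this exact form was searched. The stretches printed below hold catgtg in CEACAM7 and cacatg in CEACAM1, each a single base away from CACGTG. A near match there is thus not particular to the abundant pair. The stretch from -60 to -31 is printed for the abundant pair and, for contrast, for CEACAM7 and CEACAM1, each 5′ to 3′ on its gene's strand; capitals mark CACGTG or, in CEACAM1, the GC box GGGCGG on the other strand, which 42.6% of promoters hold.
CEACAM5, chr19:41708566-41708595, plus strand: ccacacccatgaccCACGTGatgctgagaa
CEACAM6, chr19:41755470-41755499, plus strand: accgcacccatgaccCACGTGaccctggga
CEACAM7, chr19:41688301-41688330, minus strand: gaccccacccctggaccatgtgatcttgga
CEACAM1, chr19:42528512-42528541, minus strand: gacaaaccCCGCCCcagcacacatgatcag
CEACAM6 also held GGGCGG at -211 and TATAAA at -139 (10.7% of promoters hold the latter), and CEACAM5 held neither. These matches describe letters only; no binding was measured.

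Genes that make or carry GPI anchors, of which CEACAM5 and CEACAM6 are clients, were read against the same tests. In guide against NTC lines 0 genes were called in each of the lists that follow, against 4 of all 17335 genes (0.0231%). At that share, a 0 in a short list says little about its genes. Between letters, the counts stand beside 29.6% of all 16411 genes called, 15.0% as lower in B, and a median of 0.00 over all genes. There, 2 of 29 genes of GPI synthesis and remodelling were higher and 11 lower in B (median log2 fold change -0.08). Among the lower were PIGF (-0.33, SE 0.06), PIGG (-0.19, SE 0.03) and GPAA1 (-0.17, SE 0.03). The higher genes were PGAP1 (0.31, SE 0.03) and PIGT (0.12, SE 0.03). Of 19 other GPI-anchored genes tested, 2 were higher and 7 lower (median -0.08). PLAUR, the urokinase receptor, had a log2 fold change of -0.50 (SE 0.07) and CD55, a complement regulator, of -0.47 (SE 0.05), both of the size of the CEACAM6 change, while NT5E (-0.27), PRNP (-0.18) and CD24 (-0.18) moved less.

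Other lists around the family were mixed between letters, where 29.6% of all tested genes were called and 15.0% were called lower. Of 13 tested binding and signalling partners of CEACAM proteins, 4 were higher and 2 lower in B (median 0.05). Among them ANXA2 (-0.22, SE 0.02) fell, and the kinase CSK (0.15, SE 0.03) and HNRNPM, a receptor for CEA on liver macrophages (0.11, SE 0.03), rose. Of 15 tumour surface glycoproteins, 4 were higher and 5 lower (median -0.03), with TSPAN8 (-0.39, SE 0.05) and GPA33 (-0.21, SE 0.04) among the falls and EGFR (0.17, SE 0.03) and ERBB3 (0.12, SE 0.03) among the rises. Of 17 adhesion genes of the immunoglobulin superfamily, 1 was higher, NECTIN1 (0.17, SE 0.03), and 3 were lower, MPZL2 (-0.16), MPZL1 (-0.10) and NECTIN3 (-0.09). Of 16 transcription factors linked to CEA genes, 4 were higher and 2 lower (median 0.06), with CDX2 (0.17), HNF4A (0.17) and HIF1A (0.11) among the higher. None of the 15 other CEA family genes of the list was abundant enough to be tested.

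Neighbouring genes moved either way between letters. The cluster from CEACAM21 to CEACAM8 (chr19:41549518-42595055) holds 46 other genes. Of these, 22 were tested between arms with 0 called, against 0.0231% of all 17335 genes. Between letters 21 were tested, 3 higher and 2 lower in B, which is 23.8% against 29.6% of all genes. Among the called neighbours, named after their values were seen, CIC (0.14) and GSK3A (0.10) were higher and RABAC1 (-0.15) and RPS19 (-0.09) lower.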

How the data were processed

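Per the labels' protocols, polyadenylated RNA was selected on oligo(dT) beads, fragmented and primed at random, with no step that keeps strand. The authors deposited 1 table of RSEM expected counts per gene, a type given by the table's name; 7.12% of values were not whole. The submitters' processing notes name hg38, CASAVA 1.8.2, TopHat2 2.0.8 and FastQC 0.11.2; what each did, and which annotation, is not given in the sources used here. Counts were rounded. Library totals, 39026605 to 45050991, limit the trace members.

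Tests used edgeR 4.0.16 in R 4.3.3 (TMM, filterByExpr, quasi-likelihood, two-sided, Benjamini-Hochberg over all tested genes, threshold 0.05). They were also run on simulated counts that held no line effect and no change in low-count genes. That run does not show how the tests perform on lettered pairs or on trace members. Arms were compared on A and B summed per line; guides and NTC lines in a fit of 5 line means; letters with the line as a block. Alternatives were DESeq2 1.42.0, its size factors, filters, GC correction, the letter as a block, and leaving out libraries or lines. Letters pair the libraries: deviations from line means correlated in all 10 same-letter pairs (r 0.486 to 0.781 over 9527 genes). Positions, lengths and transcripts are from GENCODE 29 (99.5% of identifiers matched); alignments used Biopython 1.88.

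The members and lists were chosen with earlier results of these data known. Named were all members; of each list its 3 most abundant genes and up to 4 called genes per comparison, of which examples are printed; the 3 genes most like each abundant member; and RNASE1. Some called genes are not reported here.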

Additional observations from a re-analysis of the deposited data

Results flagged for a closer look

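CEACAM19 in the library NTC1 B, at 0.503 CPM, stood apart from the other B libraries: its gap to the nearest of them was 0.880 of the whole range of the 5, above the critical value of 0.710. It was the 1 flag among 34 groups of libraries tested, where chance flags about 1 in 20. The value rests on 23.1 counts, against 7 to 8.11 in the other B libraries.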

How the results depend on the processing

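No alternative changed a member's call: of 470 alternative values for 26 member results, 424 kept their direction and 46 changed sign, all of fold changes that were not called, and CEACAM6 stayed called between letters in all 18. Counts of all genes called moved more. Between arms (4), DESeq2 called 55, no filter 238, a mean of at least 5 CPM 7, A libraries alone 11, and the fit without line NTC1 29, sg1 10, sg2 7 or sg3 13; leaving out 1 library gave 1 (such as NTC2 B) to 12 (NTC1 B). With the letter as a replicate block 2 were called, and 2 with GC correction added. For sg1, sg2 and sg3 (1 each), DESeq2 called 6, 4 and 4, no filter 69, 95 and 86, the replicate block 4, 2 and 6, and the block with GC correction 3 for sg2 and 5 for sg3; leaving out 1 library gave 1 to 2 for sg1, 0 to 2 for sg2. NTC2 against NTC1 (0) gave 2 with DESeq2, 57 with no filter, 2 with the replicate block and 0 to 1 with 1 library left out. The test among guide lines (0) gave 8 with DESeq2, 141 with no filter, 8 with the replicate block, 3 with the block and GC correction, and 0 to 2 with 1 library left out. Letters (4850) gave 2642 in guide lines only. Sign changes were these. For CEACAM5 between letters (0.00), values were 0.0012 with the size factors of DESeq2, 0.0008 with DESeq2, 0.0083 at 5 CPM, 0.0029 with GC correction, 0.0084 with no line block and 0.083 in NTC lines only, and -0.068 to 0.093 with 1 library left out. Between arms, CEACAM5 was 0.0066 in A libraries alone, CEACAM6 0.015 without line sg2 and CEACAM3 -0.88 without line NTC1; with 1 library left out, CEACAM5 ran from -0.12 to 0.013, CEACAM6 from -0.19 to 0.11, CEACAM7 from -0.020 to 0.88 and CEACAM3 from -0.20 to 0.69. In the line comparisons with 1 library left out, CEACAM5 ran from -0.14 to 0.13 (sg1), -0.34 to 0.034 (sg2), -0.096 to 0.035 (sg3) and -0.090 to 0.17 (NTC2), and was -0.0044 for sg1 with no filter. CEACAM6 ran from -0.10 to 0.21 (sg1), -0.65 to 0.16 (sg2), -0.32 to 0.21 (sg3) and -0.38 to 0.24 (NTC2), and CEACAM1 from -0.047 to 0.24 (sg2), -0.022 to 0.17 (sg3) and -0.15 to 0.19 (NTC2). The median rank was 1064.5 for CEACAM5 and 11049 for CEACAM1 with the union of exons. The causes were not tested. For arms and single lines, a fit that leaves out a library leaves its line with a single letter, so letter differences enter it. For letters, such a fit draws nothing from that line. The interaction of letter and arm was fitted once. Depth limits CEACAM3, CEACAM7, CEACAM8, CEACAM19 and CEACAM21 most: at 0 to 23.1 counts per library, only large changes could pass.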
